A study of Canis lupus familiaris with 12 samples.

Results

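IL1RL1 encodes ST2, the receptor of the alarmin interleukin-33. The interleukin-1 family members examined in the RNASeq data comprised the receptors IL1RL1, IL1RAP and IL1R1, the ligands IL33, IL1A, IL1B and IL18, and the signal transducers MYD88, IRAK1 and IRAK4. They were chosen by name, and IL1RL1 was picked because its level was higher in all 3 knockout (KO) lines than in wild-type (WT) cells. Of these 10 genes, 6 were among the 13672 genes listed in the deposited table, and all 6 were among the 12650 genes tested. The 4 ligands were not found under their symbols or RefSeq synonyms, so their levels were not analysed here, and no level of any of them is implied.

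The cells were MDCKII, an epithelial line from dog kidney. WT cells and cells made deficient by CRISPR/Cas9 for cingulin (CGN-KO, clone 1G8), for paracingulin (CGNL1-KO, clone 22) or for both proteins (dKO, clone 21D3) were sequenced as 3 libraries each, without any treatment, after 3 d in culture. Cingulin and paracingulin are cytoplasmic proteins of epithelial junctions. Each KO genotype was 1 clonal line, so genotype and clone cannot be told apart. The labels do not say that the libraries of a genotype came from separate cultures, so the p-values below measure the spread between these libraries, which may be technical.

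Ligand binding to ST2 or to the interleukin-1 receptor IL1R1 recruits the shared co-receptor IL1RAP. The paired intracellular domains bind the adaptor MYD88, which assembles the kinases IRAK4 and IRAK1 (or IRAK2), and TRAF6 then passes the signal to the NF-κB and MAP kinase cascades. ST2 is best known on mast cells, type 2 innate lymphoid cells and T helper cells, and a soluble form made from the same gene binds interleukin-33 without signalling. A count per gene does not separate the membrane form from the soluble form.

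The number of reads per library ranged from 16837532 to 30086076. CGN mRNA was at 39.7 to 56.5 CPM (read counts scaled to library size) in the CGN-KO and dKO libraries and at 198 to 233 CPM in the other libraries. CGNL1 mRNA was at 1.11 to 3.02 CPM in the CGNL1-KO and dKO libraries and at 5.04 to 12.3 CPM in the others, so both targeted genes went with the labels. All 6 kidney epithelium markers (CDH1, EPCAM, KRT8, KRT18, CDH16, PAX8) were listed. Their summed level was 5319 to 5517 CPM in WT, 5092 to 5177 in CGN-KO, 5371 to 5544 in CGNL1-KO and 5194 to 5283 CPM in dKO libraries, so the CGN-KO and dKO sums lay below the WT sums. Of the 6 markers, 4 passed the test described below in CGN-KO cells (EPCAM, CDH16 and PAX8 higher and KRT18 lower, 66.7%, against 19.0% of all genes tested), and 2 were higher in CGNL1-KO and 2 in dKO cells (33.3% each, against 10.3% and 26.3%). The part of these shifts in the results was not tested.

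IL1RL1 was at 58.2, 47.7 and 61.2 CPM in WT replicates 1, 2 and 3, from 988, 864 and 1280 reads. It was at 354, 326 and 349.9 CPM in CGN-KO cells (10729, 6596 and 5925 reads) and at 229, 215 and 229 CPM in CGNL1-KO cells (3950, 4768 and 4277 reads). In dKO cells it was at 280.4 CPM in the library whose column carries no replicate number, 272 CPM in replicate 2 and 256 CPM in replicate 3 (5789, 4788 and 6294 reads). The 4 genotypes did not overlap, with WT lowest and then CGNL1-KO, dKO and CGN-KO.

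The mean IL1RL1 level was 55.7 CPM ± 7.08 (SD, n = 3) in WT, 343 ± 15.2 in CGN-KO cells, 224 ± 8.0 in CGNL1-KO cells and 269 ± 12.7 in dKO cells. The KO means were 6.16, 4.03 and 4.84 times the WT mean in CGN-KO, CGNL1-KO and dKO cells, respectively. On the log2(CPM + 1) scale these differences were 2.61, 1.999 and 2.26, and they ranked 2, 1 and 3 from the top among the 12650 genes. They chose the gene, so they are given without a test, and the 3 comparisons share the WT libraries. KO values all above WT values were found for 18.4%, 13.3% and 23.2% of all genes tested in CGN-KO, CGNL1-KO and dKO cells. The share of listed genes with a lower mean level was 69.0% in WT cells and 97.0%, 94.3% and 95.6% in the CGN-KO, CGNL1-KO and dKO cells. These shares rank CPM values that are not corrected for transcript length. In these bulk samples more cells with IL1RL1 mRNA and more IL1RL1 mRNA per cell cannot be told apart.

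**Figure D1:**
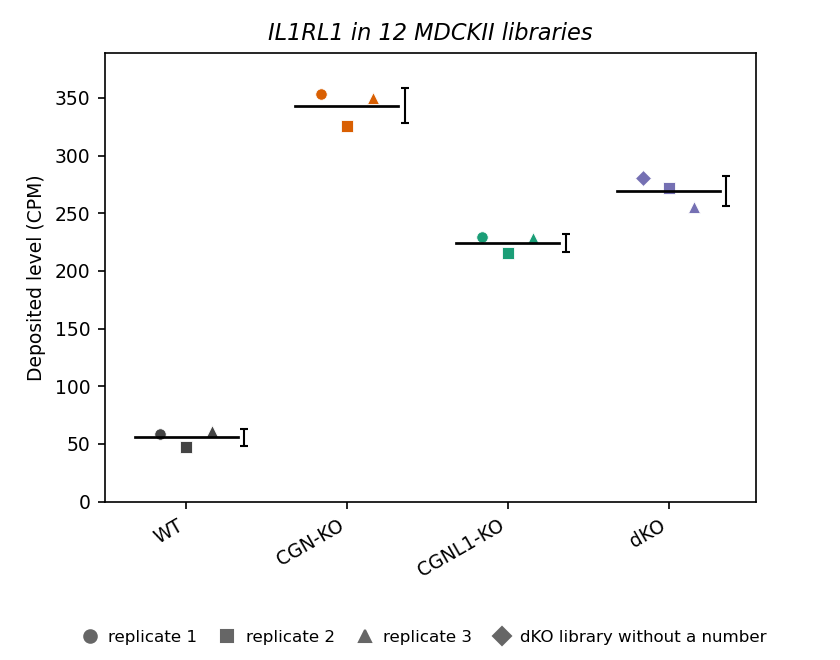
Deposited IL1RL1 level (CPM, linear axis from 0) in each library of WT, CGN-KO, CGNL1-KO and dKO cells. Symbols are libraries, horizontal lines are means and bars are SD (n = 3). The WT libraries sit between 47.7 and 61.2 CPM, and the KO libraries between 215 and 354 CPM without overlap between genotypes.

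The differences between the KO lines were not part of that choice and were tested with limma across all genes. IL1RL1 was higher in CGN-KO than in CGNL1-KO cells by 0.61 on the log2 scale (SE 0.0751, 95% interval 0.45 to 0.77, adjusted p = 9.37e-05). It was lower in dKO than in CGN-KO cells (log2 difference -0.35, 95% interval -0.51 to -0.19, adjusted p = 0.00845), and the adjusted p was 0.0516 without dKO replicate 3. It was higher in dKO than in CGNL1-KO cells by 0.26 (95% interval 0.10 to 0.42, adjusted p = 0.0271). That last difference no longer passed without CGNL1-KO replicate 2 (adjusted p = 0.0707) or 3 (0.0663), or without the unnumbered dKO library (0.112) or dKO replicate 2 (0.0873). Thus CGN-KO cells held more IL1RL1 mRNA than CGNL1-KO cells whichever single library was left out, whereas the place of dKO cells between them rested on single libraries.

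The receptor-bearing immune cells were examined through their markers. Of 9 markers of mast cells and type 2 lymphoid cells, 3 were listed (GATA3, IL7R and RORA), and KIT, FCER1A, CPA3, HDC, MS4A2 and IL2RA were not. Their summed level was 19.3 to 20.8 CPM in WT, 25.3 to 27.0 in CGN-KO, 18.6 to 22.6 in CGNL1-KO and 25.6 to 27.4 CPM in dKO libraries. IL7R, the interleukin-7 receptor chain, went from 0.354 to 0.883 CPM in WT to 2.901 to 3.60 CPM in CGN-KO and 3.68 to 3.82 CPM in dKO cells, where all of its values lay above those of WT. It was at 0.58 to 1.17 CPM in CGNL1-KO cells, where IL1RL1 was also high and IL7R overlapped WT. IL7R reached the 1 CPM needed for testing almost only in its CGN-KO and dKO libraries, so these differences are given without a test. Of 5 leukocyte markers only CD14 and CD68 were listed, and PTPRC, CD3E and CSF1R were not. The part of other cell types in the IL1RL1 level was not tested.

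IL1R1, the signalling receptor of interleukin-1α and interleukin-1β, was scarce. It was at 0.236, 0.883 and 0.239 CPM in WT replicates 1, 2 and 3, which is 4, 16 and 5 reads. It was at 2.704, 1.83 and 1.83 CPM in CGN-KO cells (82, 37 and 31 reads). CGNL1-KO cells held 0.755, 0.496 and 0.803 CPM (13, 11 and 15 reads), and dKO cells 1.36, 1.93 and 1.34 CPM (28, 34 and 33 reads). CGN-KO and dKO values all lay above the WT values, and CGNL1-KO values overlapped them. IL1R1 passed the filter on low values (more than 1 CPM in at least 3 libraries) only through its CGN-KO and dKO libraries, so that a difference from the other genotypes was built into its being tested. Its differences are therefore a description without a test. The log2 differences from WT were 1.12 in CGN-KO cells, 0.24 in CGNL1-KO cells and 0.83 in dKO cells, and those from CGNL1-KO cells were 0.88 in CGN-KO and 0.59 in dKO cells. CGN-KO and dKO cells, which both passed the filter, differed by -0.29 (dKO minus CGN-KO, adjusted p = 0.374).

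IL1RAP, the co-receptor of both receptors, moved less. Its levels were 61.4, 67.1 and 63.4 CPM in WT, 67.8, 63.4 and 64.3 CPM in CGN-KO, 67.5, 66.6 and 71.1 CPM in CGNL1-KO and 58.1, 54.8 and 55.9 CPM in dKO cells. The dKO values were the lowest of the 4 genotypes, and those of the other 3 overlapped. In dKO cells IL1RAP was lower than in CGNL1-KO cells (log2 difference -0.28, adjusted p = 0.00318), a difference that passed without any single library. It was also lower than in WT (-0.18, adjusted p = 0.0239) and in CGN-KO cells (-0.21, adjusted p = 0.0276). The difference from WT was lost without WT replicate 2 (adjusted p = 0.111) or dKO replicate 2 (0.0918) or 3 (0.0716). The difference from CGN-KO was lost without CGN-KO replicate 1 (0.122) or 3 (0.0634), the unnumbered dKO library (0.0537) or dKO replicate 2 (0.109) or 3 (0.0902).

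MYD88, the adaptor, was at 131, 127 and 122 CPM in WT, at 112, 112 and 116 CPM in CGN-KO, at 101, 121 and 113 CPM in CGNL1-KO and at 116, 119 and 112 CPM in dKO cells. All 9 KO values lay below all 3 WT values, as they did for 17.5%, 11.1% and 21.8% of all genes tested in CGN-KO, CGNL1-KO and dKO cells, respectively. None of the differences passed (log2 -0.16, -0.18 and -0.13, adjusted p = 0.0778, 0.0695 and 0.134). In CGNL1-KO cells the difference passed without CGNL1-KO replicate 2 (adjusted p = 0.0172) and with library totals in place of the normalized sizes (0.0303). With the replicate number as a block it passed in CGN-KO (adjusted p = 0.0439) and CGNL1-KO cells (0.0357).

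IRAK1 was at 50.03, 60.4 and 69.5 CPM in WT, a wider spread than in the KO lines, where it ranged from 46.8 to 58.7 CPM. Its log2 differences from WT were -0.22, -0.14 and -0.17 in CGN-KO, CGNL1-KO and dKO cells (adjusted p = 0.116, 0.422 and 0.218). Without WT replicate 1, the lowest WT library, IRAK1 passed in CGN-KO (log2 -0.35, adjusted p = 0.011) and dKO cells (-0.29, adjusted p = 0.0241). IRAK4, the kinase that acts first, was at 14.8 to 17.3 CPM in WT and 13.5 to 16.3 CPM in the KO lines. Its log2 differences from WT had 95% intervals of -0.17 to 0.19, -0.26 to 0.10 and -0.32 to 0.05 in CGN-KO, CGNL1-KO and dKO cells, which leave out a change of 2-fold in either direction. Of the 5 members other than IL1RL1, 1, 0 and 2 passed in CGN-KO, CGNL1-KO and dKO cells, against 19.0%, 10.3% and 26.3% of all genes tested, and IL1R1 with its limit above was the 1 in CGN-KO cells and 1 of the 2 in dKO cells.

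**Figure D2:**
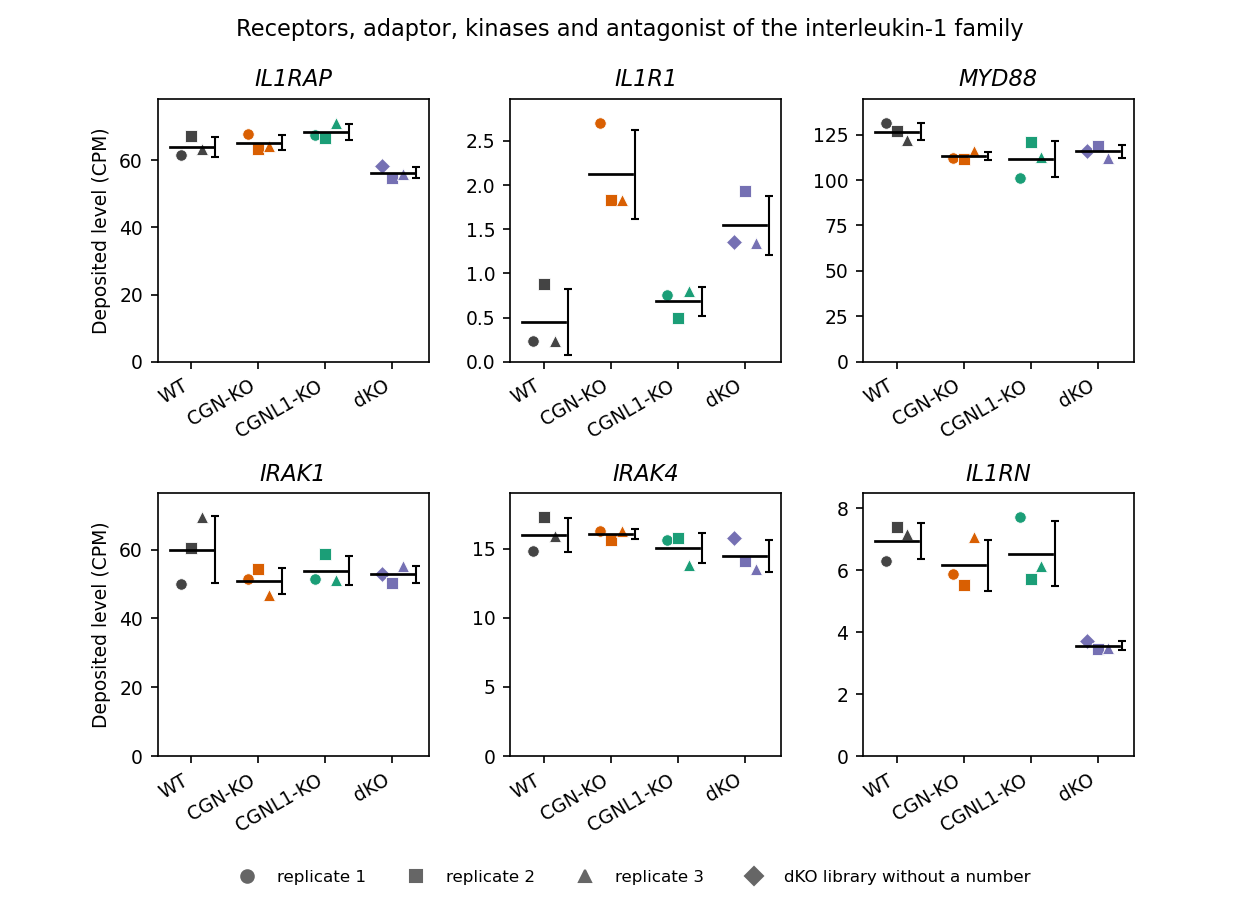
Deposited level (CPM, linear axes from 0, a different scale per gene) of IL1RAP, IL1R1, MYD88, IRAK1, IRAK4 and the antagonist IL1RN in each library. Symbols are libraries, lines are means and bars are SD (n = 3). IL1R1 is above 1 CPM in the CGN-KO and dKO libraries and below it in the WT and CGNL1-KO libraries, whereas IL1RAP and IL1RN are lowest in dKO cells.

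IL1RL1 lies within the cluster of interleukin-1 receptor genes, so its neighbours among the listed genes were compared in RefSeq gene order. Genes that were not listed were passed over. On one side came IL18RAP, SLC9A2, MFSD9, POU3F3 and MRPS9, and on the other IL1RL2, IL1R1, MAP4K4, CREG2 and RNF149. IL1RL2, the interleukin-36 receptor, was at 0.884, 0.828 and 1.62 CPM in WT and at 2.80, 3.11 and 2.30 CPM in CGN-KO cells. It was higher in CGN-KO than in WT cells (log2 difference 0.84, adjusted p = 0.00125), whereas the differences in CGNL1-KO and dKO cells were 0.38 and 0.17 (adjusted p = 0.161 and 0.474). It was also lower in dKO than in CGN-KO cells (-0.67, adjusted p = 0.0133), a difference lost without CGN-KO replicate 2 (adjusted p = 0.0517), the unnumbered dKO library (0.0703) or dKO replicate 2 (0.0529). IL18RAP, a chain of the interleukin-18 receptor, was at 0.938 to 1.20 CPM in WT, and its differences of 0.35, 0.08 and 0.14 did not pass (adjusted p = 0.14, 0.821 and 0.566).

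The sodium/proton exchanger SLC9A2, the next listed gene beyond IL18RAP, was higher in all 3 KO lines, by 0.47 (CGN-KO), 0.49 (CGNL1-KO) and 0.36 (dKO) on the log2 scale (adjusted p = 0.00254, 0.00309 and 0.0107). The transcription factor POU3F3 was lower in all 3, by log2 differences of -1.26, -0.52 and -1.06 (adjusted p = 7.14e-06, 0.0237 and 3.47e-05). The listed genes nearest to IL1RL1 (IL18RAP, SLC9A2, IL1RL2 and IL1R1) thus had positive differences in all 3 KO lines, though not all of them passed. Those of IL1R1 are a description. POU3F3, which lies further away, had negative differences. No values are given in the text for MFSD9, MRPS9, MAP4K4, CREG2 and RNF149. The median difference of the 450 tested genes on the chromosome of IL1RL1 was -0.0049, -0.0097 and -0.02 in CGN-KO, CGNL1-KO and dKO cells. A shared shift of only the genes next to IL1RL1 was not tested.

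**Figure D3:**
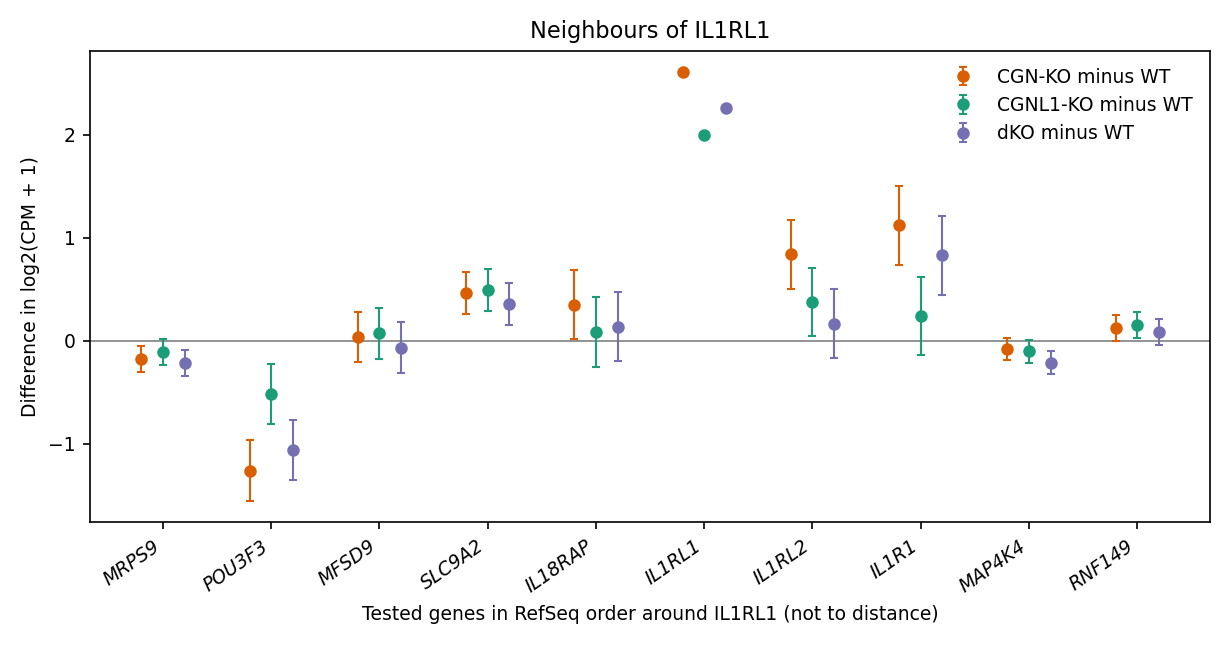
Difference from WT in log2(CPM + 1) of IL1RL1 and the tested genes next to it in RefSeq order, for CGN-KO, CGNL1-KO and dKO cells. Bars are 95% intervals from limma, and IL1RL1 has none because this difference chose it. IL1RL1 stands between 1.999 and 2.61, and POU3F3 between -1.26 and -0.52.

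Beyond the members, 114 genes of interleukin-1 family signalling were examined, of which 88 were listed and 85 tested. With the members other than IL1RL1 this gave 90 genes. Of these, 21 passed in CGN-KO cells compared with WT (11 higher and 10 lower, 23.3%, against 19.0% of all genes tested), a share near that of all genes. In CGNL1-KO cells 17 passed (15 higher and 2 lower, 18.9%, against 10.3%), and in dKO cells 33 passed (11 higher and 22 lower, 36.7%, against 26.3%). The CGN-KO and dKO counts include IL1R1 among the higher genes, although its differences from WT are a description without a test. The dKO count also includes MMP9, CXCL8 and CXCL10 among the lower genes. Their mean dKO levels lay below the 1 CPM of the filter, so these differences are descriptions too. The genes of some chromosomes were shifted as a whole in dKO cells. Those of chromosome 24 were shifted in all 3 KO lines (median 0.19, 0.20 and 0.14 in CGN-KO, CGNL1-KO and dKO cells, 317 tested genes). With each chromosome's median subtracted the counts were 22, 17 and 26 (7 higher and 19 lower in dKO cells). The shares of all genes were not computed after this subtraction, so these counts cannot be set against the shares above. The CGNL1-KO count was 9 without WT replicate 2 and 11 without WT replicate 3, again without a share of all genes to set beside it. The median log2 differences of the 90 genes were 0.0044, 0.066 and -0.046 in CGN-KO, CGNL1-KO and dKO cells, and those of all genes tested were -0.0039, -0.0031 and -0.00036.

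**Figure D4:**
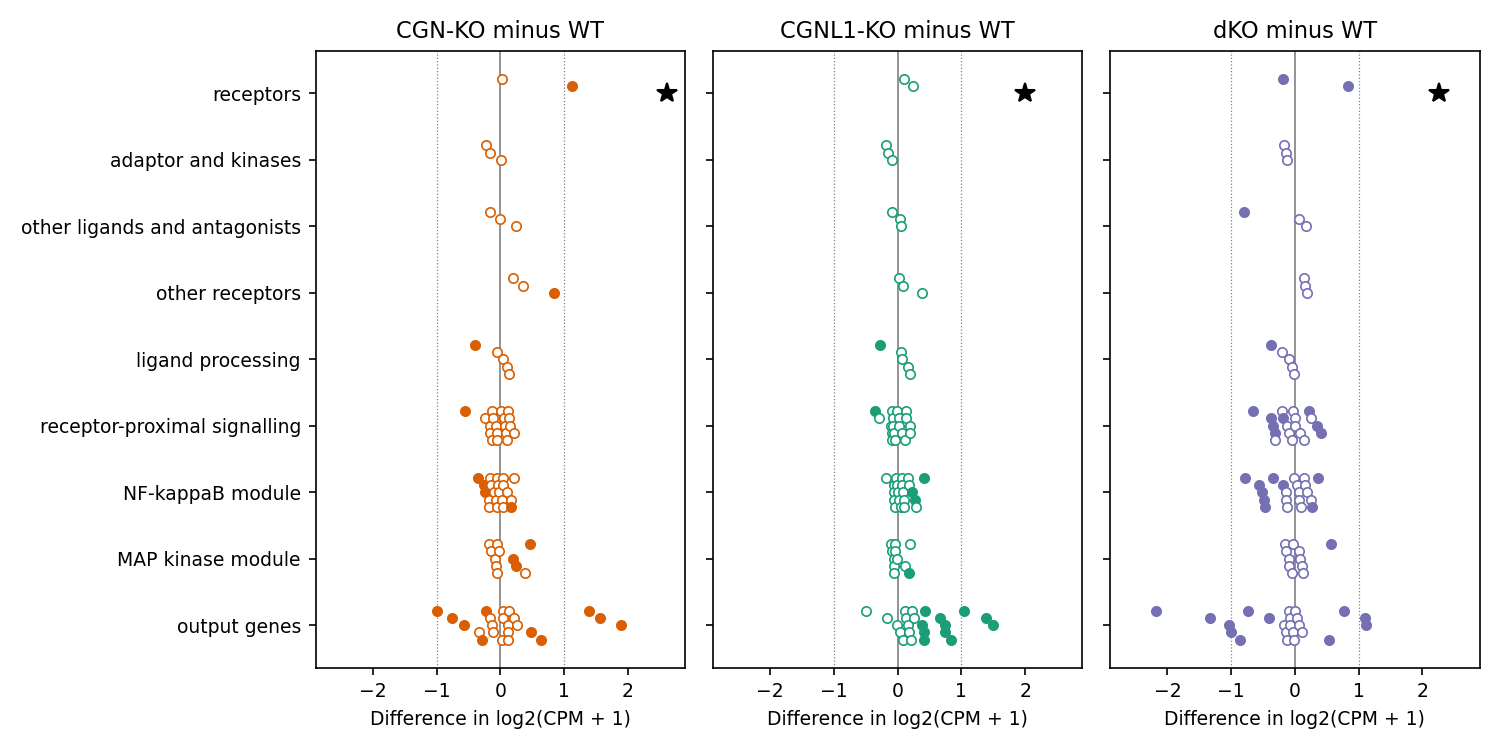
Difference from WT in log2(CPM + 1) of each tested interleukin-1 pathway gene, grouped by role, for CGN-KO, CGNL1-KO and dKO cells. Filled circles passed limma at an adjusted p below 0.05, open circles did not, the star is IL1RL1 (no test) and dotted lines mark 2-fold. Any filled circle of IL1R1, or of MMP9, CXCL8 or CXCL10 in dKO cells, is a description without a test. Most circles of the signalling modules lie near 0, while output genes lie mostly right of 0 in CGNL1-KO cells and reach -2.17 in dKO cells.

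Among the antagonists, IL1RN, the interleukin-1 receptor antagonist, was at 6.30, 7.40 and 7.17 CPM in WT and at 3.73, 3.47 and 3.49 CPM in dKO cells. It was lower in dKO than in WT cells (log2 difference -0.80, adjusted p = 0.000117), and the differences in CGN-KO and CGNL1-KO cells were -0.16 and -0.08 (adjusted p = 0.394 and 0.743). It was also lower in dKO cells than in both single KO lines (-0.64 and -0.72, adjusted p = 0.00294 and 0.000763). IL1RN was named after its values were seen, as were CASP8, IRAK2, NFKBIA, TNFAIP3, NFKB2, RELB, TOLLIP, TRAF6, TAB2, RELA, NFKBIB, CSF1 and PTGS2 below. CASP8, a protease that can process interleukin-1β, was the only one of 5 tested ligand-processing genes to pass, and it was lower in all 3 KO lines (-0.40, -0.27 and -0.38, adjusted p = 0.00052, 0.0157 and 0.000658). Its CGNL1-KO difference was lost without WT replicate 3 (adjusted p = 0.0767) or CGNL1-KO replicate 2 (0.0577).

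Of 19 tested receptor-proximal genes, 1 passed in CGN-KO cells (5.26%, against 19.0% of all genes tested), 1 in CGNL1-KO cells (5.26%, against 10.3%) and 8 in dKO cells (3 higher and 5 lower, 42.1%, against 26.3%). IRAK2, a kinase that binds MYD88 and IRAK4, was at 12.8, 10.9 and 11.8 CPM in WT, 8.64, 7.70 and 6.97 CPM in CGN-KO, 9.29, 7.81 and 10.005 CPM in CGNL1-KO and 6.93, 7.56 and 6.78 CPM in dKO cells. All KO values were below the WT values. IRAK2 was lower in CGN-KO (log2 difference -0.55, adjusted p = 0.00161) and dKO cells (-0.66, adjusted p = 0.000251). It was also lower in CGNL1-KO cells (-0.36, adjusted p = 0.0422), a difference that did not pass without WT replicate 1 (adjusted p = 0.143), 2 (0.0541) or 3 (0.105) or CGNL1-KO replicate 1 (0.0548) or 2 (0.161).

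In dKO cells the receptor-proximal genes that were higher than in WT were TOLLIP, an inhibitory adaptor (0.41, adjusted p = 0.000145), TAB2 (0.34, adjusted p = 0.00119) and the ubiquitin ligase TRAF6 (0.23, adjusted p = 0.0128). The NF-κB genes that were higher were the subunit RELA (0.27, adjusted p = 0.00327) and the inhibitor NFKBIB (0.37, adjusted p = 0.02). TRAF6 did not pass without WT replicate 3 (adjusted p = 0.0547) or dKO replicate 3 (0.0557), nor NFKBIB without WT replicate 1 (0.106), dKO replicate 3 (0.0814) or the unnumbered dKO library (0.0504). All 5 lie on chromosomes whose genes were shifted as a whole in dKO cells. The median difference was 0.30 over the 398 tested genes of the chromosome that holds TOLLIP, TRAF6 and RELA, and 0.20 over the 688 of the chromosome that holds TAB2 and NFKBIB. With these medians subtracted, none of the 5 passed (adjusted p = 0.152 to 0.687), and TRAF6 and RELA changed sign (-0.07 and -0.04).

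Of 21 tested NF-κB genes, 4 passed in CGN-KO (1 higher and 3 lower, 19.0%, the share of all genes tested), 3 in CGNL1-KO (all higher, 14.3%, near the 10.3% of all genes) and 9 in dKO cells (2 higher and 7 lower, 42.9%, against 26.3%). NFKBIA encodes IκBα, which holds NF-κB in the cytoplasm and is itself transcribed on NF-κB activation. It was at 79.5, 71.8 and 76.5 CPM in WT, 94.7, 83.1 and 90.6 CPM in CGNL1-KO and 41.5, 43.3 and 45.7 CPM in dKO cells. It was lower in dKO (log2 difference -0.79, adjusted p = 2.27e-07) and higher in CGNL1-KO cells (0.23, adjusted p = 0.0272) than in WT. The CGNL1-KO difference did not pass without WT replicate 2 (adjusted p = 0.137) or 3 (0.0638) or CGNL1-KO replicate 1 (0.0874) or 3 (0.0941), nor with library totals as sizes (0.0627). In CGN-KO cells the difference was -0.18 (adjusted p = 0.0597, and 0.0142 with the replicate number as a block).

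TNFAIP3, the deubiquitinase A20, followed the same order, lower in dKO (-0.51, adjusted p = 0.0015) and higher in CGNL1-KO cells (0.41, adjusted p = 0.0157). The CGNL1-KO difference did not pass without WT replicate 2 (adjusted p = 0.0573) or 3 (0.0687) or CGNL1-KO replicate 3 (0.0701). The noncanonical subunits NFKB2 and RELB were lower in dKO (-0.47 and -0.56, adjusted p = 6.73e-05 and 0.000673) and in CGN-KO cells (-0.23 and -0.35, adjusted p = 0.0194 and 0.0212). In CGN-KO cells NFKB2 was lost without WT replicate 2 (adjusted p = 0.0693) or 3 (0.081) or CGN-KO replicate 3 (0.063), and RELB without WT replicate 1 (0.093) or CGN-KO replicate 2 (0.0914). Of 11 tested MAP kinase genes, 3, 1 and 1 passed, all higher, in CGN-KO, CGNL1-KO and dKO cells (27.3%, 9.09% and 9.09%, against 19.0%, 10.3% and 26.3% of all genes tested).

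The output list held 34 genes known to respond to interleukin-1 receptors, many of which also respond to other stimuli, and 23 were tested. In CGN-KO cells 5 were higher and 5 lower, in CGNL1-KO cells 11 were higher and 0 lower, and in dKO cells 4 were higher and 7 lower than in WT. For all genes tested the shares were 11.2% higher and 7.87% lower in CGN-KO cells, 6.81% and 3.49% in CGNL1-KO cells, and 14.8% and 11.5% in dKO cells. The lower genes in dKO cells include MMP9, CXCL8 and CXCL10, whose dKO differences are descriptions.

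CCL20, the ligand of CCR6, was at 11.1, 10.98 and 11.04 CPM in WT, 10.2, 9.53 and 9.62 CPM in CGN-KO, 31.3, 17.5 and 24.7 CPM in CGNL1-KO and 4.17, 3.07 and 4.14 CPM in dKO cells. It was higher in CGNL1-KO (log2 difference 1.045, adjusted p = 0.000233) and lower in dKO cells (-1.34, adjusted p = 8.03e-06) than in WT. MMP9, a secreted gelatinase, was at 1.77, 1.82 and 2.53 CPM in WT, 12.8, 3.57 and 6.74 CPM in CGNL1-KO and 0.339, 0.569 and 0.528 CPM in dKO cells. It too was higher in CGNL1-KO cells than in WT (1.38, adjusted p = 0.00327). Its dKO difference of -1.03 is a description, since no dKO library exceeded 1 CPM.

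The neutrophil chemoattractant CXCL8 was at 2.30, 1.99 and 2.92 CPM in WT, 0.857, 1.48 and 1.59 CPM in CGN-KO, 4.70, 3.75 and 5.62 CPM in CGNL1-KO and 0.775, 0.398 and 0.934 CPM in dKO cells. It was lower in CGN-KO (-0.56, adjusted p = 0.0314) and higher in CGNL1-KO cells (0.74, adjusted p = 0.0109) than in WT. No dKO library exceeded 1 CPM, so its dKO difference of -1.002 is a description. The CGN-KO difference was lost without WT replicate 1 (adjusted p = 0.0593) or 3 (0.126) or CGN-KO replicate 1 (0.131), and the CGNL1-KO difference without WT replicate 2 (0.0607) or CGNL1-KO replicate 3 (0.0662). CXCL10, a chemokine that interferons also induce, had means of 1.82 CPM in WT, 3.84 in CGNL1-KO and 0.703 CPM in dKO cells. Its log2 difference from WT was 0.75 in CGNL1-KO cells (adjusted p = 0.00748). The dKO mean lay below 1 CPM, so its dKO difference of -0.74 is a description.

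The monocyte chemoattractant CCL2 was at 36.2, 40.2 and 37.4 CPM in WT, 20.7, 23.0 and 22.1 CPM in CGN-KO, 44.5, 38.5 and 52.2 CPM in CGNL1-KO and 7.56, 6.03 and 9.62 CPM in dKO cells. It was lower in CGN-KO (-0.76, adjusted p = 0.000424) and dKO cells (-2.17, adjusted p = 5.9e-09), and its CGNL1-KO difference was 0.23 (adjusted p = 0.298). BIRC3, an inhibitor of apoptosis, was likewise lower in CGN-KO (77.0, 91.6 and 82.0 CPM in WT against 36.2, 42.5 and 45.6 CPM) and in dKO cells (45.7, 40.7 and 49.5 CPM). Its log2 differences were -0.996 and -0.87 (adjusted p = 1.15e-06 and 3.85e-06), against 0.18 in CGNL1-KO cells (adjusted p = 0.255).

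The endothelial marker KDR moved in the same directions as CCL20, from a mean of 1.36 CPM in WT to 2.24 CPM in CGNL1-KO and 0.208 CPM in dKO cells (log2 difference from WT 0.46 in CGNL1-KO cells, adjusted p = 0.0474). Its dKO difference of -0.96 is a description, since no CGN-KO or dKO library exceeded 1 CPM. Of 4 endothelial markers KDR and VWF were listed, with a summed level of 1.47 to 2.04 CPM in WT, 1.38 to 1.78 in CGN-KO, 2.51 to 2.98 in CGNL1-KO and 0.69 to 0.853 CPM in dKO libraries, and PECAM1 and CDH5 were not. Of 5 fibroblast markers 1 (PDGFRA) was listed, at 2.705 to 5.48 CPM in WT and 5.88 to 11.1 CPM in CGN-KO cells, where it was higher (log2 difference 0.81, adjusted p = 0.0489). Its differences in CGNL1-KO and dKO cells were 0.41 and 0.52 (adjusted p = 0.422 and 0.178). The part of such cells in the output gene levels was not tested.

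The complement genes C3 and CFB and the growth factor gene CSF1 were higher than WT in all 3 lines. C3, the central complement component, was at 51.5, 39.4 and 40.8 CPM in WT, 187, 156 and 153 CPM in CGN-KO, 99.6, 65.4 and 75.3 CPM in CGNL1-KO and 83.6, 103 and 96.5 CPM in dKO cells. Its log2 differences from WT were 1.89, 0.84 and 1.09 (adjusted p = 5.08e-08, 0.000484 and 1.6e-05). CFB, complement factor B, was at 18.5, 14.3 and 16.2 CPM in WT, 52.1, 39.0 and 42.3 CPM in CGN-KO, 60.8, 37.9 and 47.0 CPM in CGNL1-KO and 34.6, 37.0 and 37.96 CPM in dKO cells. Its log2 differences were 1.39, 1.496 and 1.12 (adjusted p = 2.49e-06, 2.29e-06 and 1.96e-05). CSF1, a growth factor of macrophages, had log2 differences of 0.63, 0.67 and 0.53 (adjusted p = 0.000969, 0.00114 and 0.00285).

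LCN2, a siderophore-binding protein of injured kidney epithelium, was at 5.83, 3.15 and 4.11 CPM in WT and at 23.0, 10.8 and 12.1 CPM in CGN-KO cells (log2 difference 1.56, adjusted p = 0.000507). It was at 4.53, 1.81 and 2.35 CPM in CGNL1-KO and 3.73, 5.06 and 4.02 CPM in dKO cells, both overlapping WT (-0.49 and -0.0029, adjusted p = 0.29 and 0.995). PTGS2, the inducible cyclooxygenase, was at 29.3, 29.9 and 31.1 CPM in WT and 52.3, 51.5 and 52.4 CPM in dKO cells (0.77, adjusted p = 6.24e-07). Thus in dKO cells PTGS2, C3, CFB and CSF1 were higher while CCL2, CCL20, CXCL8 and CXCL10 were lower.

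**Figure D5:**
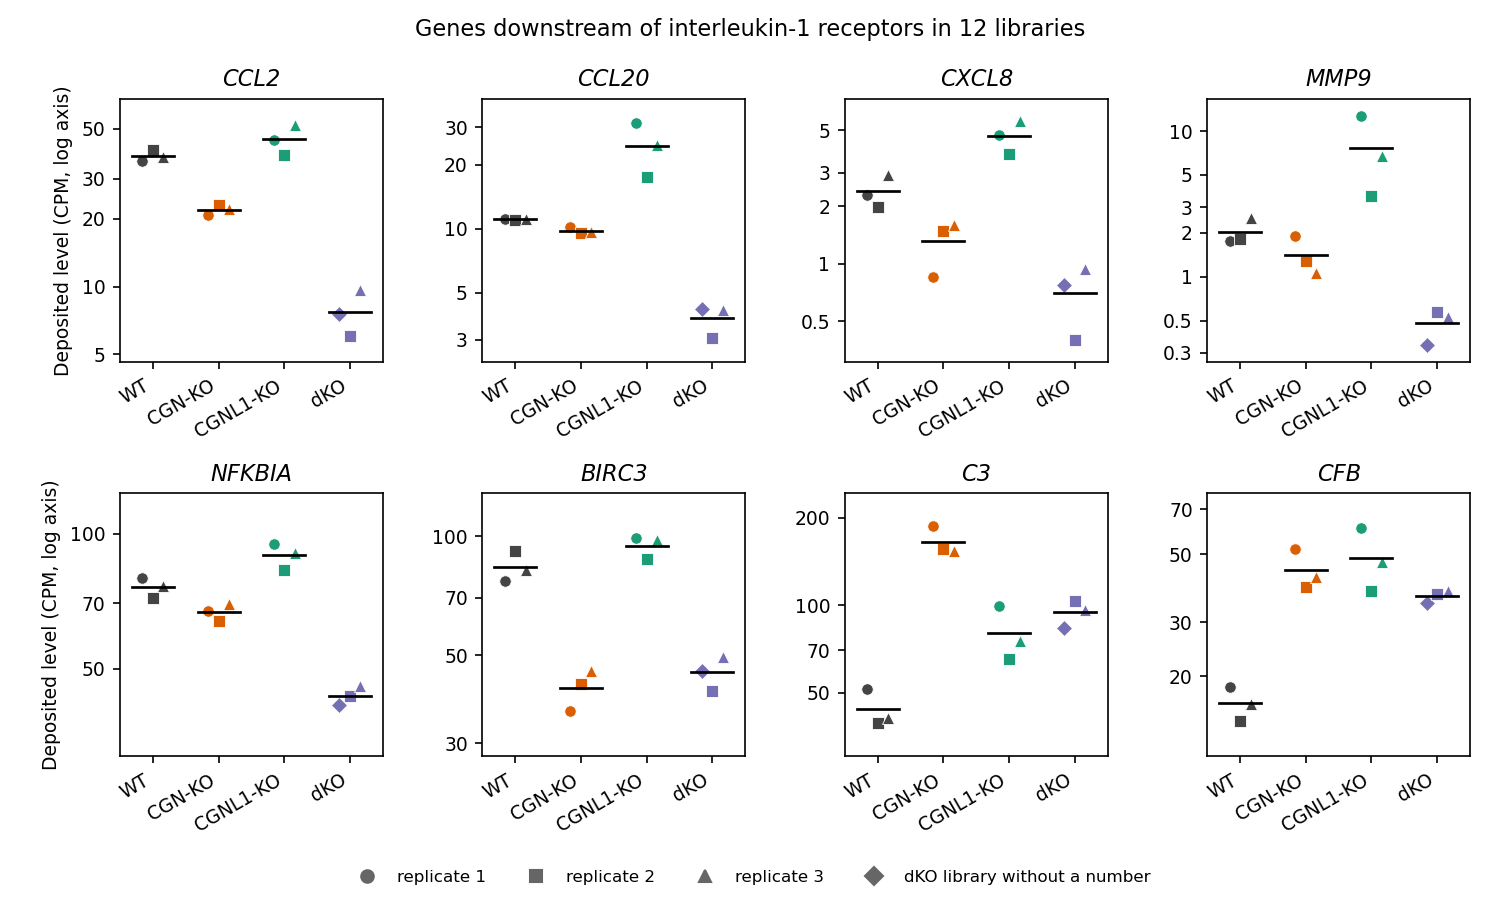
Deposited level (CPM, log axes, a different scale per gene) of CCL2, CCL20, CXCL8, MMP9, NFKBIA, BIRC3, C3 and CFB in each library. Symbols are libraries and lines are means. CCL20 and MMP9 are highest in CGNL1-KO and lowest in dKO cells, BIRC3 is low in CGN-KO and dKO cells, and C3 and CFB are above WT in all 9 KO libraries.

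The direct comparisons of the KO lines gave 17 of the 90 genes passing in CGN-KO against CGNL1-KO (4 higher and 13 lower, 18.9%, against 5.19% of all genes), 15 in dKO against CGN-KO (5 higher and 10 lower, 16.7%, against 8.84%) and 30 in dKO against CGNL1-KO (7 higher and 23 lower, 33.3%, against 14.4%). The counts against CGNL1-KO cells include IL1R1 among the higher genes, although its differences from these cells are a description without a test. The third count also includes MMP9, CXCL8 and CXCL10 among the lower genes, and the second includes CXCL10. These are descriptions too, since the mean dKO levels lay below 1 CPM. The second count was 8 without the unnumbered dKO library and 9 without dKO replicate 2. With the chromosome medians subtracted it was 12 (1 higher and 11 lower), and the third was 25 (3 higher and 22 lower). The shares of all genes were not computed for these refits. CCL20 was lower in dKO cells than in both single KO lines (log2 differences -1.18 from CGN-KO and -2.38 from CGNL1-KO), as was CCL2 (-1.41 and -2.41).

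The genes whose level was most like that of IL1RL1 over the 12 libraries were DBN1 (Pearson's r = 0.989), KIF26B (0.989), GPR153 (0.988), SLC6A12 (0.985) and PLEKHG1 (0.985). The most opposite were ADAMTS9 (-0.987) and SH3D19 (-0.979). SLC6A12, the betaine transporter of kidney cells, had means of 16.3 CPM in WT, 61.2 in CGN-KO cells, 38.3 in CGNL1-KO cells and 50.3 CPM in dKO cells. ADAMTS9, a secreted metalloprotease, had means of 61.1, 34.7, 40.9 and 37.8 CPM. In all, 51 genes had r above 0.95 and 10 below -0.95. The 12 libraries form 4 groups and share their normalization, so r reflects mostly the order of the group means, and 0 of the 5 genes most like IL1RL1 by Spearman's rho were among these 5. Of the members, r with IL1RL1 was 0.75 for IL1R1, -0.71 for MYD88, -0.58 for IRAK1, -0.24 for IRAK4 and -0.11 for IL1RAP.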

How the data were processed

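mRNA was measured by RNASeq in 12 libraries of 4 MDCKII genotypes. Per the labels and methods, stranded mRNA libraries were sequenced as single reads, aligned with STAR 2.7.0f to canFam3, counted per gene with HTSeq 0.9.1 and normalized with edgeR by the authors. The strand setting and annotation release of the counting are not given in the sources used here. The deposited values are a signal in CPM, scaled by the authors to TMM library sizes, so columns do not sum to the same total. Every value was a whole multiple of 1 read (tolerance 0.01 reads, 100.0% of values), from which reads were recovered. No transcript lengths were at hand, so levels were not compared between genes, except in the share of listed genes below IL1RL1, which is by CPM. Intervals and low counts cover the spread between libraries only.

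Genotypes were compared with limma 3.58.1 in R 4.3.3, using log2(CPM + 1), a trended eBayes step and 1 model for the 4 genotypes. The 12650 genes tested exceeded 1 CPM in 3 or more libraries. Fold changes on this scale understate those of low genes. A gene passed at an adjusted p below 0.05 (Benjamini-Hochberg over all genes tested), and every adjusted p is from this fit unless another is named. The members and lists were chosen with earlier results of these data known. Genes named by rule are the members, list genes that passed with at least 2-fold in any KO line, the 2 largest below 2-fold per line, the 5 genes most like and 2 most unlike IL1RL1, its listed neighbours (up to 5 a side) and CGN and CGNL1. Cell type markers and the genes stated above to be named after their values were seen come on top of these. Gene order came from RefSeq (UU_Cfam_GSD_1.0), which is another build, so no coordinates are given. Alternatives were library totals, pseudocounts of 0.5 and 0.1, no filter, edgeR 4.0.16 and DESeq2 1.42.0 on recovered reads, only the 2 genotypes compared, a replicate block, each library left out, and values minus the chromosome median. CGN-KO and CGNL1-KO libraries of the same number deviated together (r = 0.632, 0.475 and 0.179), though CGN-KO replicate 3 was closer to CGNL1-KO replicate 2 (0.32). This pairing comes from the data, not the labels. The limma, edgeR and DESeq2 fits were tested on simulated data for CGN-KO against WT only, and the other steps were not. Plots were drawn with matplotlib 3.10.9.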

Additional observations from a re-analysis of the deposited data

Results flagged for a closer look

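The results below differed between KO lines when the difference itself was tested with limma (log2 difference, adjusted p below 0.05). No explanation was tested for any of them.

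IL1RL1 differed between all pairs of KO lines, by 0.61 for CGN-KO minus CGNL1-KO, -0.35 for dKO minus CGN-KO and 0.26 for dKO minus CGNL1-KO. With single libraries left out the adjusted p rose to as much as 0.0516 for the second and 0.112 for the third. IL1RAP was lower in dKO than in CGN-KO (-0.21, adjusted p up to 0.122 with 1 library left out) and CGNL1-KO cells (-0.28). IL1R1 stood higher in CGN-KO (0.88) and in dKO (0.59) than in CGNL1-KO cells, which is a description only, since it was tested only through its CGN-KO and dKO libraries. IL1RL2 was lower in dKO than in CGN-KO cells (-0.67, adjusted p up to 0.0703 with 1 library left out). The antagonist IL1RN was lower in dKO than in CGN-KO (-0.64) and CGNL1-KO cells (-0.72).

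CGN-KO was below CGNL1-KO cells for CXCL8 (-1.30), CCL2 (-0.996), CCL20 (-1.20), CXCL10 (-0.87), BIRC3 (-1.18), MMP9 (-1.72), NFKBIA (-0.41), TNFAIP3 (-0.60) and NFKB2 (-0.30), and above them for LCN2 (2.05) and C3 (1.05). NFKB2 did not pass without CGN-KO replicate 3 (adjusted p = 0.0552) or CGNL1-KO replicate 3 (0.0846). With the replicate block, which pairs these libraries, RELB also passed (-0.32, adjusted p = 0.0296, against 0.0859 without it).

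dKO was below CGNL1-KO cells for CXCL8 (-1.74), CCL2 (-2.41), CCL20 (-2.38), CXCL10 (-1.48), BIRC3 (-1.05), MMP9 (-2.41), NFKBIA (-1.02), TNFAIP3 (-0.92), NFKB2 (-0.53) and RELB (-0.52). For CXCL8, MMP9 and CXCL10 this is a description only, since their mean dKO levels lay below 1 CPM. The dKO cells were above CGNL1-KO cells for PTGS2 (0.78), TOLLIP (0.34), TRAF6 (0.27), RELA (0.27) and TAB2 (0.21). With the chromosome medians subtracted TOLLIP, TRAF6, RELA and TAB2 did not pass (0.087, 0.024, 0.018 and 0.013, adjusted p = 0.413, 0.856, 0.878 and 0.931). TAB2 passed without CGNL1-KO replicate 2 (adjusted p = 0.0491) but not without any other of the 6 libraries (0.0502 to 0.188).

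dKO was below CGN-KO cells for CCL2 (-1.41), CCL20 (-1.18), CXCL10 (-0.62), LCN2 (-1.56), C3 (-0.80), NFKBIA (-0.61) and NFKB2 (-0.24), and above them for PTGS2 (0.64), TOLLIP (0.35), TRAF6 (0.22), TAB2 (0.23) and RELA (0.22). For CXCL10 this is a description only, for the reason given above. With the chromosome medians subtracted TOLLIP, TRAF6, TAB2 and RELA did not pass (0.14, 0.0085, 0.036 and 0.0075, adjusted p = 0.211, 0.957, 0.808 and 0.956), nor did NFKB2 (-0.22, adjusted p = 0.0757). TRAF6 did not pass without any single one of the 6 libraries (lowest adjusted p = 0.0529). CXCL10 passed without dKO replicate 2 only (adjusted p up to 0.130 otherwise), NFKB2 without dKO replicate 3 only (up to 0.168), TAB2 without CGN-KO replicate 3 only (up to 0.181) and RELA without CGN-KO replicate 2 only (up to 0.141).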

How the results depend on the processing

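The shares of all genes that passed were computed for the main fit only. Counts of the 90 pathway genes that passed stayed within 1.5 times of the reported ones under the alternatives tried, apart from the following. For CGNL1-KO against WT the count of 17 became 11 with only these 2 genotypes fitted and 26 with the replicate block. For dKO against CGN-KO the count of 15 became 8 without the unnumbered dKO library and 9 without dKO replicate 2. With each library left out in turn the counts ranged from 14 to 21 (CGN-KO against WT), 9 to 17 (CGNL1-KO against WT), 27 to 32 (dKO against WT), 14 to 21 (CGN-KO against CGNL1-KO), 8 to 12 (dKO against CGN-KO) and 23 to 34 (dKO against CGNL1-KO). With the chromosome median subtracted TRAF6 and RELA in dKO against WT turned to -0.0744 and -0.0354. Of the log2 differences of named genes over all settings, 2566 counted as the same, 106 lost and 26 gained significance and 2 were reversed. The same meant the same side of the threshold, or for IL1RL1 against WT a shift of less than 1 SD in the same direction. Differences that changed sign without passing in either fit are thus among the 2566. All 96 levels moved by less than 1 SD.

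The replicate number was used as a block on the 11 libraries with a number. In the CGN-KO and CGNL1-KO pair, where libraries of the same number deviated together, the blocked count was 23 against 17. RELB (adjusted p = 0.0296) was the only named gene whose call changed there. WT replicates 1 and 2 deviated with the same number in CGN-KO (r = 0.373 and 0.318) and CGNL1-KO cells (0.329 and 0.371). WT replicate 3 did not (-0.082 and 0.011). For dKO replicates 2 and 3, r with the same number elsewhere was -0.235 to 0.086. In comparisons with WT or dKO cells the number thus went with the deviations only in part or not at all. With the block MYD88 passed in CGN-KO (adjusted p = 0.0439) and CGNL1-KO cells (0.0357) against WT. NFKBIA passed in CGN-KO (0.0142) and LCN2 in CGNL1-KO cells (-0.49, 0.0091) against WT. In dKO against CGNL1-KO cells LCN2 (0.83, 0.00046) and C3 (0.46, 0.00013) passed and TAB2 (0.0731) did not. In dKO against CGN-KO cells CXCL10 (0.121), NFKB2 (0.0736), TRAF6 (0.0762) and TAB2 (0.0776) did not. Depth limits IL1R1, which rests on 4 to 16 reads per WT library. With 3 libraries per genotype and 1 clone per KO, clone and genotype cannot be told apart, and the causes of the changes above were not tested.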
